A study of Homo sapiens with 18 samples.

Results

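The glucocorticoid receptor (GR) and RELA, the p65 subunit of NF-κB, were compared site by site in A549 cells, each under the agent that activates it. GR binding was taken after budesonide and RELA binding after IL-1β. Budesonide is an inhaled glucocorticoid and IL-1β an inflammatory cytokine. Every site that carried a GR value and a RELA value was kept, which was 11571 of the 11571 sites of 400 bp in the processed table. No measured value was used to choose them. The site classes below were cut from the ranks themselves, so their sizes and intensities are descriptions and not tests.

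A549 is a human lung carcinoma line used as a model of the type II alveolar cell; it is a single tumour line and not primary epithelium. Wild-type cells were held overnight in serum-free medium and then treated for 1 hour. The groups used here were GR with 300 nM budesonide (Bud) and RELA with 1 ng/mL IL-1β, and, for reference, GR and RELA with both agents at the same doses (I+B). Chromatin was precipitated with the antibody GR356 for GR and D14E12 for RELA. Each group had 2 libraries from independent experiments, among 18 libraries in all, 8 for GR, 8 for RELA and 2 of input. The table held 1 binding intensity for each site and group, with the experiments already combined. The spread between the experiments and the sequencing depth behind a value are therefore unknown, and no p-value between the factors could be given. The 95% Wilson intervals printed with shares cover counting error over sites only.

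Ligand-bound GR enters the nucleus and binds the glucocorticoid response element (GRE), a pair of inverted hexamers separated by a short spacer. IL-1β frees RELA from its cytoplasmic inhibitor IκBα, and RELA dimers then bind κB elements at genes for chemokines, cytokines and feedback inhibitors of the pathway. In airway epithelium these factors are known for opposite effects on many inflammatory genes, and both use chromatin that other factors such as AP-1 and C/EBP proteins hold open.

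A few sites are printed to show the elements that the results below turn on; they were picked for holding one and are illustrations. The first set gives the central 120 bp (hg38) of the 4 sites with the largest rank difference toward GR among GR-led sites of unique sequence, outside UTRs, with a GRE in that window. The element searched was AGAACA, 3 free bases and its reverse complement, with at least 10 of 12 positions matched, and the capitals mark it.
KLF13 site, chr15:31365892-31366011, plus strand: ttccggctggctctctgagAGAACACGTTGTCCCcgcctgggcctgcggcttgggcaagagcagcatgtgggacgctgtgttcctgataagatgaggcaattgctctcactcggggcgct
PRKAG2 site, chr7:151923710-151923829, plus strand: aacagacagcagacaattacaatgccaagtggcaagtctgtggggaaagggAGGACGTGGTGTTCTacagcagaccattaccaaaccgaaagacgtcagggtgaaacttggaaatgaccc
YWHAQ site, chr2:9699512-9699631, plus strand: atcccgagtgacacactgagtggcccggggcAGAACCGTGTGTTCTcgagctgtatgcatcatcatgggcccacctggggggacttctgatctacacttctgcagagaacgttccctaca
ACSL1 site, chr4:184813526-184813645, plus strand: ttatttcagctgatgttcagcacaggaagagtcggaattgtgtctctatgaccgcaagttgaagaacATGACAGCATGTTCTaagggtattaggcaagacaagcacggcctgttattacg

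The KLF13 site lay in an intron 38.9 kb from the gene start, with a GR intensity of 7.04 and a RELA intensity of 0. At the PRKAG2 site, 46.4 kb upstream of the start, GR stood at 6.99 and RELA at 0. KLF13 encodes a zinc-finger transcription factor and PRKAG2 a subunit of the AMP-activated kinase. The YWHAQ site matched 11 of 12 positions, with GR at 8.16 and RELA at 1.07. The ACSL1 site, in an intron of a gene for a fatty acid-activating enzyme, had GR at 7.74 and RELA at 0.920. With both agents RELA stood at 2.14, 2.78, 5.60 and 5.03 at these sites in the same order.

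The second set gives the same window for the 4 sites with the largest rank difference toward RELA among RELA-led sites of unique sequence whose window lay outside UTRs and held a full match to the κB consensus, 9 defined positions, in capitals.
SLX4IP site, chr20:10541249-10541368, plus strand: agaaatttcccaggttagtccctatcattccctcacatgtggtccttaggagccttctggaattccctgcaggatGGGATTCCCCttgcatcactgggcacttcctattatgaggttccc
BID site, chr22:17781845-17781964, plus strand: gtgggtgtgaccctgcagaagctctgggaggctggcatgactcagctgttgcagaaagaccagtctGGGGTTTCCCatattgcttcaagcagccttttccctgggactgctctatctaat
CEMIP site, chr15:80776529-80776648, plus strand: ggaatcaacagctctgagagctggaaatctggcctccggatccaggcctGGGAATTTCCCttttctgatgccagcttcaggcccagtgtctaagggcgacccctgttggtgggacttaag
CTSS site, chr1:150764991-150765110, plus strand: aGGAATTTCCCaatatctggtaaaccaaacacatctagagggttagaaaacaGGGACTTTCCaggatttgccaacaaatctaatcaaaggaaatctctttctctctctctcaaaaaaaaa

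RELA was at 7.98 and GR at 0 at the SLX4IP site, in an intron. The BID site, 6.94 kb upstream of the gene for a pro-apoptotic BCL2-family protein, had RELA at 7.70 and GR at 0. At the CEMIP site, 2.56 kb upstream of the start, RELA was at 7.39 and GR at 0, and GR was still at 0 with both agents. The CTSS site held 2 κB elements 0.707 kb into the gene for cathepsin S, a protease of antigen processing, with RELA at 7.92 and GR at 0.269. GR with both agents was at 5.58 at SLX4IP, 4.72 at BID and 4.57 at CTSS.

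The third set shows sites of unique sequence with high ranks for both factors, for contrast. They are the next 3 after the NFKBIA site, and no capital appears because neither element was found in these windows.
RBFOX3 site, chr17:79473491-79473610, plus strand: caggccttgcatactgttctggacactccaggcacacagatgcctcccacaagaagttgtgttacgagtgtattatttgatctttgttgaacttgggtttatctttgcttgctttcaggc
SERPINA3 site, chr14:94599278-94599397, plus strand: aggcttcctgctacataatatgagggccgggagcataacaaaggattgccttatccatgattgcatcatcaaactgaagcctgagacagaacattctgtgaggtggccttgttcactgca
ANXA8L1 site, chr10:46524741-46524860, plus strand: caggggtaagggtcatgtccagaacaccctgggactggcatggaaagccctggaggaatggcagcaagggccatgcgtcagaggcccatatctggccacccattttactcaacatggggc

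GR was at 8.48, 8.87 and 8.41 and RELA at 8.22, 7.62 and 7.59 at these sites, in the same order. SERPINA3 encodes an acute-phase protease inhibitor. The leading site for both factors, in NFKBIA, held 1 full κB match, GGGACTTTCC at chr14:35403963-35403972, 57.5 bp from the centre of the site.

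Strong GR sites and strong RELA sites were mostly different sites. A site was called strong for a factor when its intensity lay above the 75th percentile of that factor, which was 25% of sites for GR and 25% for RELA. The weakest strong GR site had an intensity of 5.52 and the weakest strong RELA site 5.24. Of the 2893 strong GR sites, 516 were also strong for RELA, 17.8% (95% interval 16.5 to 19.3%), against 25% of all sites. In 1969 of them, 68.1% (66.3 to 69.7%), RELA was at or below its median. In the other direction, 2118 of the 2893 strong RELA sites, 73.2% (71.6 to 74.8%), had GR at or below its median. Sites of the first kind are called GR-led (17.0% of all sites), those of the second RELA-led (18.3%), and those strong for each factor strong for both (4.46%). The other 6968 sites belonged to none of these.

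The intensities of the 2 factors were inversely related across sites, with a Spearman rho of -0.40 over 11571 sites. With both agents on the cells, rho between GR and RELA was 0.34 over the same sites. Sites share chromatin, libraries and the list itself, so rho is given without a p-value. The rule by which sites entered the list is not stated. Sites low for both factors were rare in it: 516 sites (4.46%) had both intensities under 4, 4747 (41.0%) reached 4 for GR alone, 3935 (34.0%) for RELA alone and 2373 (20.5%) for each. The part of this makeup of the list in rho, in the overlap of strong sites above and in the step described next was not tested.

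The relation was close to a step. In sites of unique sequence the median RELA percentile was 68.3, 72.5, 70.5 and 70.2 in the lowest 4 deciles of GR. It was 33.6 in decile 5 and 25.7 in decile 6, and reached 36.8 in decile 10. GR across RELA deciles had the same shape, between 64.4 and 69.5 in deciles 1 to 5, 29.5 in decile 6 and 32.8 in decile 10. Within the sites where both factors were above their medians, rho was 0.08 in 1120 sites of unique sequence. Where both were at or below their medians it was -0.36 in 1213 sites.

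Sequence that recurs in the genome stood apart at the top of both rankings. In 2320 sites (20.1%) more than 5% of the 31-base words of the site occurred elsewhere on chromosomes 1 to 22, X and Y. They made up 15.3% of GR-led sites, 18.6% of RELA-led sites and 39.3% of sites strong for both. Of the top 1% of sites for GR, 34 of 116 were also in the top 1% for RELA, and 32 of these 34 had recurrent sequence. Among sites of unique sequence the same overlap was 2 of 72 GR sites and 2 of 63 RELA sites. The leading pair, near SHCBP1 on chromosome 16, had GR at 11.0 and RELA at 10.8 at the first site, and GR at 10.7 and RELA at 10.5 at the second. With both agents the first site had GR at 10.8 and RELA at 10.5. Over the 34 shared top sites the 4 intensities of a site differed by a median of 0.753. In the 203 recurrent sites strong for both they differed by 0.806, against 1.10 in the 313 sites of unique sequence strong for both and 3.58 in GR-led sites of unique sequence. The part of recurrent sequence in these intensities was not tested. Shares of sites by class, element and neighbour are given below for sites of unique sequence unless stated. Counts and shares by gene and gene list include recurrent sequence.

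Without the recurrent sites, 13.5% (12.2 to 15.0%) of strong GR sites were strong for RELA, 13.9% (12.6 to 15.4%) of strong RELA sites were strong for GR, and rho was -0.44. This left 1668 GR-led sites, 1725 RELA-led sites and 313 strong for both. The GR-led sites had a median GR intensity of 6.16 (quartiles 5.80 and 6.69) and a median RELA intensity of 2.95. In RELA-led sites the medians were 2.79 for GR and 5.85 (5.50 and 6.42) for RELA. Sites strong for both had 6.29 for GR and 6.01 for RELA. RELA was listed at 0 in 44 of the GR-led sites, and GR at 0 in 70 of the RELA-led sites. With both agents the median RELA intensity of GR-led sites was 3.99 and the median GR intensity of RELA-led sites 4.25. Since these classes were chosen for a low value with 1 agent, a higher value elsewhere is in part fixed by that choice. The intensities are levels, and the untreated level is not among the values used here.

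Among the 10 sites with the largest rank difference toward GR, GR ran from 6.99 to 9.24 and RELA from 0 to 0.792. The first 3, near PTPN1, MSN and EDEM1, had recurrent sequence. ADIPOR2, a receptor for the fat-derived hormone adiponectin, had a site 28.2 kb upstream with GR at 7.26 and RELA at 0. The ELN site, 4.37 kb upstream of the elastin gene, had GR at 7.69 and RELA at 0.333. At ARRDC2, which encodes an arrestin-domain protein, GR was at 8.39 and RELA at 0.792. The JADE1 site had GR at 7.65 and RELA at 0.371, and 1 site on chromosome 6 had no gene name. KLF13 and PRKAG2, printed above, closed the list.

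Toward RELA the corresponding 10 sites had RELA from 7.17 to 7.98 and GR from 0 to 0.269. Besides SLX4IP, BID, CEMIP and CTSS they lay near ACBD6, CCDC122, CCDC85A, NFKB1, BDKRB1 and PHACTR1, of which the ACBD6 and CCDC85A sites had recurrent sequence. The NFKB1 site overlapped the start of the gene for the p50 partner of RELA, with RELA at 7.80 and GR at 0.00548. BDKRB1 encodes the inflammatory bradykinin B1 receptor, and its site had RELA at 7.74 and GR at 0.170. A full κB match was present in 8 of these 10 sites, while 3 of the 10 sites led by GR had a GRE match of 10 positions or more.

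The 10 highest joint ranks over all sites belonged to recurrent sequence near SHCBP1, OCIAD2 and WSB1 and to 4 sites with no gene name, and none had a GRE or a full κB match. In unique sequence the first was in NFKBIA, the gene for IκBα, 0.53 kb from the start and in an exon. Its GR intensity was 9.47 with budesonide and 8.44 with both agents, and its RELA intensity 8.38 with IL-1β and 8.70 with both agents. After RBFOX3, SERPINA3 and ANXA8L1 came sites at PDE4D, MYC, FAM174B, CEBPB, NTMT1 and BAMBI. PDE4D, a cyclic AMP phosphodiesterase gene, had GR at 7.89 and RELA at 7.49. The CEBPB site, 118 kb from the gene of the transcription factor C/EBPβ, had GR at 7.38 and RELA at 7.92. Of the 10, the NFKBIA site alone held a full κB match, and none held a GRE.

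RELA-led sites made up a larger share of sites near gene starts than of sites farther away, and GR-led sites did not. Even so, RELA-led sites lay at a median of 43.5 kb from the listed start and GR-led sites at 61.6 kb, recurrent sequence included. Over all sites, 399 lay within 1 kb of the start of the gene listed as nearest. Of these, 48.1% (43.3 to 53.0%) were RELA-led, against 18.3% of all sites. GR-led sites made up 13.0% (10.1 to 16.7%) of the 399, against 17.0%. The RELA-led share was 25.9% from 1 to 10 kb, 18.3% from 10 to 50 kb, 15.9% from 50 to 200 kb and 13.5% beyond 200 kb. The GR-led share stayed between 15.8 and 18.2% over these 4 ranges. Near starts the median RELA percentile was 82.5 and the median GR percentile 35.8. The gene start itself was overlapped by 87 of 2118 RELA-led sites (4.11%) and by 14 of 1969 GR-led sites (0.711%). In unique sequence the share within 1 kb was 50.3% RELA-led and 13.6% GR-led. These 354 sites had a median GC content of 57.4%, against 44% in all sites of unique sequence, and the part of base composition was not tested.

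The RELA-led promoters with the highest intensities included genes of NF-κB itself. RELA stood at 9.28 at NFKB2, the gene for p52, and 8.77 at TNFAIP2. GR stood at 3.06 and 3.87 there. CCL20, a chemokine gene, had RELA at 8.08 and GR at 3.28, and BCL3, a nuclear IκB protein gene, RELA at 7.82 and GR at 3.92. REPIN1, SLC9A8, NINJ1 and SIRT2 were also among the first 10, with RELA from 7.78 to 8.28. The promoters led by GR began with SLC19A2, a thiamine transporter gene, with GR at 8.56 and RELA at 2.67. RFESD, CAPN2 and TPRG1 followed, with GR at 7.89, 7.81 and 7.70. IGFBP1, an insulin-like growth factor binding protein gene, had GR at 7.68 and RELA at 2.59, and KRT7, a keratin gene, GR at 7.66 and RELA at 2.63. Sites strong for both lay at 13 promoters, 8 of them of unique sequence, among them NFKBIA and the phosphatase gene DUSP1 with GR at 6.16 and RELA at 5.62.

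The share of sites with a GRE was higher in GR-led than in RELA-led sites, and the share with κB higher in RELA-led than in GR-led sites. Of 1213 sites with a GRE, 443 were GR-led and 741 belonged to none of the classes, and of 1647 sites with κB, 761 were RELA-led and 837 belonged to none. In the central 200 bp of GR-led sites a GRE was found in 26.6% (24.5 to 28.7%), in RELA-led sites in 0.870% (0.528 to 1.43%), and in sites strong for both in 4.47% (2.68 to 7.37%). The same search 2000 bp away matched in 1.20%, 1.04% and 0.319%. A full κB match was found in 44.1% (41.8 to 46.5%) of RELA-led sites, 1.26% (0.825 to 1.92%) of GR-led sites and 8.95% (6.26 to 12.6%) of sites strong for both. The values 2000 bp away were 3.77%, 1.56% and 2.56%. GRE shares in RELA-led sites and κB shares in GR-led sites thus lay at the level of the flanking sequence. Over all 9251 sites the shares were 13.1% for GRE and 17.8% for κB. At RELA-led promoters the κB share was 61.8% (54.5 to 68.6%) of 178, and at GR-led promoters the GRE share was 22.9% (13.3 to 36.5%) of 48.

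Elements of other factors divided the classes less. AP-1, the FOS and JUN dimer, binds TGANTCA, which was found in 18.2% (16.4 to 20.2%) of GR-led sites, 24.4% (22.4 to 26.5%) of RELA-led sites and 29.4% (24.6 to 34.7%) of sites strong for both. The interval of sites strong for both overlapped that of RELA-led sites and not that of GR-led sites. The C/EBP letters TTGCNNAA were found in 17.1%, 21.97% and 28.4% (23.7 to 33.7%). The forkhead letters TGTTTAC were in 11.0% (9.62 to 12.6%) of GR-led, 6.55% (5.48 to 7.82%) of RELA-led and 13.1% (9.80 to 17.3%) of sites strong for both. In the flanking windows AP-1 matched in 5.43 to 6.77% and forkhead in 1.60 to 3.13%. TEAD letters CATTCC showed no gap between GR-led and RELA-led sites beyond the intervals, at 17.1% (15.4 to 19.0%) and 16.3% (14.7 to 18.2%). The GC-rich letters GGGCGG (SP and KLF factors) and CCGGAA (ETS factors) were in 12.9% and 7.48% of RELA-led sites and in 7.43% and 1.92% of GR-led sites. Away from promoters these RELA-led shares were 9.57% and 6.27%. All elements were searched on both strands. Neither GRE nor κB was found in 72.4% of GR-led sites, 55.4% of RELA-led sites and 86.6% (82.4 to 89.9%) of sites strong for both. A missing match says only that these letters are not in the window.

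In this list, the better sites matched one element, the higher the median of its own factor and the lower that of the other. Few sites of unique sequence, 4.31%, had both intensities under 4. The part of this makeup of the list in the rise of the own factor and the fall of the other was not tested. Sites whose best GRE match was 6 of 12 positions had a median GR intensity of 3.27 and a median RELA intensity of 5.50. At 8 positions the medians were 4.54 and 4.4, at 10 positions 5.24 and 2.72, and at all 12 positions, in 42 sites, 5.35 and 2.39. For κB the median RELA intensity went from 3.06 at 6 of 9 positions to 5.24 at all 9, while GR went from 5.14 to 2.65. Most of the rise in GR with GRE match came by 10 positions, since the GR medians at 10, 11 and 12 positions were 5.24, 5.34 and 5.35. By GR decile, a GRE was in 6.55% of sites in decile 4 and 14.1% in decile 5. In deciles 6 to 10 the GRE shares were 21.8, 18.5, 20.5, 18.5 and 24.5%. The κB shares in RELA deciles 6 to 10 were 21.2, 28.5, 30.5, 33.7 and 43.3%. Matches were central: of GR-led sites with a GRE, 75.6% (71.4 to 79.4%) had it within 25 bp of the centre, and of RELA-led sites with κB 65.7% (62.3 to 68.99%). The 15 GREs in RELA-led sites were within 25 bp in 2 cases. The sites with all 12 GRE positions and the highest GR intensity were near DDIT4 (GR at 8.93, RELA at 1.26), MYC (8.48 and 2.38) and FKBP5 (8.26 and 2.35).

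Sites with both elements were few, and most belonged to none of the classes. A GRE and a full κB match occurred together in 64 sites, with median intensities of 3.91 for GR and 3.47 for RELA. Of these, 4 were GR-led, 6 RELA-led and 0 strong for both. Sites with a GRE alone numbered 1149, of which 439 (38.2%) were GR-led and 9 RELA-led. Sites with κB alone numbered 1583, of which 755 (47.7%) were RELA-led and 17 GR-led. One of the 64 was the TNFAIP3 site 159 kb upstream of the start, with all 12 GRE positions and all 9 κB positions. There GR stood at 2.85 with budesonide and 6.33 with both agents, and RELA at 6.20 with IL-1β and 6.43 with both agents. TNFAIP3 encodes A20, a feedback inhibitor of NF-κB signalling.

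Along the chromosome, GR-led and RELA-led sites lay more often near their own class than near each other. Another GR-led site was within 10 kb of 13.1% (11.6 to 14.8%) of GR-led sites, and a RELA-led site within 10 kb of 3.24% (2.49 to 4.20%). For RELA-led sites the shares were 15.0% (13.4 to 16.8%) to their own class and 3.42% (2.66 to 4.39%) to GR-led sites. The median distance from a GR-led site to the next GR-led site was 164 kb, and to the next RELA-led site 320.2 kb. The classes are of similar size, 1668 and 1725 sites. Sites strong for both, a smaller class, had a RELA-led site within 10 kb in 16.7% (12.9 to 21.2%), a GR-led site in 12.2% (9.00 to 16.3%) and another of their own in 11.2% (8.18 to 15.2%).

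The table listed a nearest gene for 11354 sites, 4714 genes in all, and 2352 of the genes had 1 site. The listed gene did not always have the closest start, and all counts by gene and by distance follow the listed one. A strong GR site was present at 1754 genes (37.2%) and a strong RELA site at 1829 (38.8%). Both were present at 746 genes, which is 42.5% of the genes strong for GR and 40.8% of those strong for RELA. These counts take the highest-ranked site of a gene, recurrent sequence included. Without recurrent sequence, 1476 genes were strong for GR, 1497 for RELA and 578 for both. By the median over a gene's sites, 791 genes were strong for GR, 903 for RELA and 76 for both. In 361 of the 746 a single site was strong for both factors, and in 385 the strong sites were always different sites. GR-led and RELA-led sites met at 395 genes. The closest such pair of a gene was a median of 39.5 kb apart (quartiles 15.3 and 101 kb), and within 10 kb at 74 of the 395 genes (18.7%). Genes with many sites have more chances to hold both kinds.

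MYC, the growth-promoting transcription factor gene, had the most sites, 40, with 8 GR-led, 5 RELA-led and 4 strong for both, from 686 kb upstream of its start to 850 kb downstream. Its strongest GR site, 422 kb downstream, had GR at 8.48 and RELA at 2.38. A site 441 kb downstream was strong for both, with GR at 7.55 and RELA at 7.34. GLIS3 had 3 GR-led and 7 RELA-led sites and MKLN1 the reverse, 7 and 3. TNS3 had 4 and 5. MAP3K8, a kinase gene of the NF-κB and MAP kinase pathways, had 1 GR-led and 7 RELA-led sites, with RELA at 7.31 and GR at 1.22 over its start and GR at 5.98 and RELA at 3.70 at 103 kb. SMAD3, a transducer of TGF-β signalling, also had 1 and 7. At SMAD3 the only GR-led site, which had recurrent sequence, and a site strong for both, with RELA at 7.76, lay 56.3 and 57.4 kb from the start. At MAP3K8, 4 sites had recurrent sequence, all of them RELA-led. ASAP1, AUTS2, SOX4 and SPIDR completed the first 10, tied with other genes at 7 such sites.

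Gene lists drawn up from known targets of each factor fell on the side of that factor. These lists were chosen with earlier results of these data known. They include genes the authors examined, among them FKBP5, CXCL8, BIRC3 and BIRC2. The shares below are therefore descriptions and not independent support. Of 26 glucocorticoid target genes 25 had a site, and 22 of the 25 (88.0%) had a strong GR site, against 37.2% of all genes, while 9 (36.0%) had a strong RELA site, against 38.8%. Their 130 sites included 53 GR-led (40.8%), 12 RELA-led (9.23%) and 9 strong for both (6.92%). The median percentiles of these sites were 83.3 for GR and 39.98 for RELA. Of 34 inflammatory NF-κB targets 32 had a site, with a strong RELA site at 28 (87.5%) and a strong GR site at 8 (25%). Their 104 sites included 4 GR-led (3.85%), 51 RELA-led (49.0%) and 7 strong for both (6.73%), and had medians of 30.7 for GR and 84.5 for RELA. Over all sites of named genes these medians were 49.9 for GR and 49.8 for RELA. Of those sites 17.2% were GR-led, 18.4% RELA-led and 4.15% strong for both. Genes with more sites have more chances of a strong one, here and in the lists that follow. The 25 and 32 genes held 130 and 104 sites, against 11354 sites on 4714 genes in all.

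Among glucocorticoid targets, FKBP5, a co-chaperone of GR, had 7 sites, of which 5 were GR-led and none RELA-led. Its strongest site, 5.70 kb from the start, had GR at 8.96 and RELA at 2.51, and with both agents GR at 8.96 and RELA at 5.78. The site with all 12 GRE positions, 126 kb from the start, had GR at 8.26 and RELA at 2.35. PER1, a circadian clock repressor, had 2 sites, both GR-led, with GR at 8.65 and 7.14 and RELA at 4.10 and 3.51. ZBTB16, a zinc-finger repressor, had 5 GR-led sites of 7, all between 94.9 and 120 kb into the gene, and the strongest of them had GR at 9.21 and RELA at 1.70. TSC22D3, which encodes the anti-inflammatory protein GILZ, had 3 GR-led sites of 4 with GR from 6.02 to 6.48. ANGPTL4, a lipase inhibitor gene, had GR at 6.64 and 6.43 and RELA at 1.79 and 0.796. In these 5 genes no site was RELA-led or strong for both.

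Other genes of the same list held both factors. DUSP1, a phosphatase that switches off MAP kinases, had 3 of its 8 sites strong for both, at the start and at 1.12 kb upstream and 55.9 kb downstream of it. The upstream site had GR at 8.20 and RELA at 5.85. A site 4.38 kb upstream was GR-led, with GR at 7.47 and RELA at 1.38, and those at 5.35 and 12.7 kb downstream were RELA-led, with RELA at 5.93 and 6.37 and GR at 3.86 and 2.70. KLF9 had 2 sites strong for both, with GR at 8.23 and 6.00 and RELA at 5.32 and 6.74. CEBPB had 1 site of each class among 8. No strong GR site was listed for CEBPD, CRISPLD2 and HSD11B2, with highest GR intensities of 0, 1.99 and 4.53. The only site listed for CEBPD, 13.0 kb upstream, had recurrent sequence. A GR-led site listed for SPIDR, 474 kb from the SPIDR start and also of recurrent sequence, lay closer to the CEBPD start. The result for CEBPD therefore depends on which gene was listed and does not show that GR was absent near its start.

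At inflammatory targets RELA ranked high and GR mostly did not. The neutrophil chemokine gene CXCL8 had 7 sites, 3 of them RELA-led. Over its start RELA was at 7.77 and GR at 4.73, and at 14.2 and 5.55 kb upstream RELA was at 6.75 and 6.71 and GR at 0.188 and 0.00548. With both agents GR was at 6.05 at the start and 6.06 at 5.55 kb upstream. ICAM1, the adhesion molecule gene, had 4 RELA-led sites of 4, and SOD2, the mitochondrial superoxide dismutase gene, 3 of 3. PTGS2, which encodes cyclooxygenase-2, had 5 RELA-led sites of 7, with RELA up to 8.80, and 1 strong for both. The highest RELA intensities of TRAF1, SAA1, VCAM1 and CSF3, 2.71, 3.52, 5.04 and 4.67, were below the limit for a strong site.

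At BIRC3, which encodes an inhibitor of apoptosis, the factors peaked at different sites. Over the start RELA was at 7.77 and GR at 5.53, close to the limit of 5.52 for a strong GR site, and the site was strong for both. At 10.8 kb upstream GR was at 7.62 and RELA at 3.98, and at 3.205 kb downstream GR was at 6.03 and RELA at 2.89; these were GR-led. With both agents the upstream site had GR at 7.90 and RELA at 6.49. The neighbouring gene BIRC2 had a RELA-led site 0.920 kb upstream, with RELA at 5.79 and GR at 0.

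The 15 genes of a list of NF-κB brakes and related genes, of which 13 had a site, were like the inflammatory list in their site values. A strong RELA site was present at 12 of the 13 (92.3%, against 38.8% of all genes) and a strong GR site at 6 (46.2%, against 37.2%). Of their 66 sites, 32 were RELA-led (48.5%, against 18.4% over all named genes) and 4 GR-led (6.06%, against 17.2%). Another 7 were strong for both (10.6%, against 4.15%), and the median GR percentile was 31.1. NFKBIA had 2 sites strong for both, 2 RELA-led and 1 GR-led among 9. ZFP36, which encodes the mRNA-destabilising protein tristetraprolin, had a RELA-led site 3.70 kb upstream with RELA at 8.72 and GR at 3.70, and a GR-led site 4.85 kb upstream with GR at 5.82 and RELA at 4.16. With both agents GR at the first of these was at 7.22. TNFAIP3 had 6 RELA-led sites and 2 strong for both among 16, and none GR-led. TNIP1, a partner of A20, had 7 RELA-led sites of 8, and SOCS3, an inhibitor of cytokine signalling, 3 of 4. IRAK3 had a RELA-led site 1.22 kb upstream, with RELA at 5.60 and GR at 1.62, and at 0.107 kb from the start intensities of 5.38 for GR and 4.98 for RELA.

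The remaining lists were smaller. Of 13 AP-1 and immediate early genes 5 had a site, of which 4 were strong for GR and 3 for RELA, against 37.2% and 38.8% of all genes. MYC supplied 40 of their 53 sites, so these counts rest on few genes. JUN had 1 site, GR-led, with GR at 5.82 and RELA at 3.07, and IER3 had 2 RELA-led sites of 3. Of 19 lung epithelial genes 10 had a site, of which 6 were strong for GR and 4 for RELA. Of their 40 sites 12.5% were GR-led and 15% RELA-led, against 17.2% and 18.4% over all named genes. GATA6, HOPX, CLDN4 and NKX2-1 had no strong GR site. KRT8 had 3 GR-led sites of 6, with GR up to 8.29. The surfactant gene SFTPB had a site with GR at 8.80, and ELF3, an epithelial ETS factor gene, 2 RELA-led sites and 1 strong for both. Of 12 genes of other tissues, which include MYOD1, MYOG and OLIG3, only PTPRC had a site, with GR at 1.09 and RELA at 4.39 as its highest values.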

How the data were processed

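ChIP-seq libraries of GR, RELA and input from A549 cells were processed by the authors, whose notes name Bowtie2 2.4.4, MACS2 2.2.7.1 and DiffBind 3.2 and the build GRCh38 (hg38). The deposited table gives, per the file headers, a binding intensity for each site and group, treated here as a score because its scale and log base are not given in the sources used here. It also gives the nearest gene and its distance to the start in bases. Its fold changes over untreated cells, FDR values, significance calls and trend classes are the authors' comparisons and were not used. Library counts were not analysed here.

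GR with budesonide and RELA with IL-1β were joined by site name and ranked within each factor (average percentile, 11571 sites). Strong meant above 75, and low meant up to 50. Intervals are 95% Wilson. Sequence was read from hg38, and the table's gene was the nearest GENCODE 44 protein-coding gene at 71.7% of sites. At 83.5% of those sites the listed distance was also close to the GENCODE distance. Recurrence was counted with 31-base words. Elements were searched in the central 200 bp and 2000 bp away. The scripts (pandas 2.3.3, SciPy 1.17.1, pysam 0.24.0) were tested on simulated data, in which every planted element was found. Named sites were the 10 with the largest rank difference toward each factor, the 10 with the highest lower rank, the 10 promoters with the highest intensity per class (chosen after values were seen), the 10 genes with the most GR-led and RELA-led sites, and members of the gene lists. Printed GR-led and RELA-led windows were picked for holding an element, and recurrent sites, windows touching a UTR and sites without a gene name were passed over. The sites, classes and lists were chosen with earlier results of these data known. Alternatives were other limits of rank and intensity, promoter width, element stringency, the median per gene and, added after the data were seen, leaving out recurrent sequence.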

Additional observations from a re-analysis of the deposited data

How the results depend on the processing

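No result carried a test. GRE and κB each stayed more frequent in the class of its own factor with other element stringency, over all bases and without recurrent sequence. Element shares were not recomputed for classes cut at other limits of rank or intensity. Class sizes moved with the limits that define them, and RELA-led sites outnumbered GR-led sites at every rank limit but not at the intensity limits. At the top 10%, GR-led, RELA-led and strong-for-both sites numbered 730, 787 and 179. With an intensity of at least 4 counted as bound they numbered 4747, 3935 and 2373, and with at least 5 GR-led sites were 3736, RELA-led sites 2855 and strong-for-both sites 807. Without recurrent sequence, added after the data were seen, strong-for-both sites fell from 516 to 313. The Spearman correlation of the intensities was -0.39 with both intensities above 0 and -0.44 both with either intensity at least 4 and without recurrent sequence. Near starts the RELA-led share was 42.4% up to 2 kb, and at the top 10% it was 28.6%, with 3.51% GR-led. The element shares that follow include sites with recurrent sequence. Their main values were 26.1% of GR-led sites for GRE and 45.4% of RELA-led sites for κB. A GRE of 11 positions was in 6.96% of GR-led and 0.0944% of RELA-led sites, and over all bases of the site a GRE was in 2.36% of RELA-led sites. A κB match of 8 positions was in 26.3% of GR-led and 82.2% of RELA-led sites, and over all bases in 3.05% and 49.3%. By the median over a gene's sites, 791 genes were strong for GR, 903 for RELA and 76 for both. No paired analysis was possible because the table gives 1 combined value for each site and group; leaving out a library, a replicate block and count models were not run for the same reason. Depth per library is unknown, so no floor can be given for intensities listed at 0.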
